A study of Mus musculus with 12 samples.

Results

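The genes described here are 7 genes of antigen presentation by the major histocompatibility complex (MHC), out of 12955 genes measured in mouse PGCLCs. These primordial germ cell-like cells are made in culture and stand for the embryonic cells that later form sperm and eggs. They are the class I heavy chains H2-K1 and H2-D1, the class I light chain B2m, the class I peptide loading genes Tap1 and Tapbp, and the class II genes H2-Ab1 and Cd74. They were taken by symbol, and all 7 had a row in the table and passed the filter on low values, H2-Ab1 only through its day 6 libraries. They were chosen because H2-Ab1 stood much higher at day 6 than at day 2, so their values by day are given as a description with no test. The starting cells were embryonic stem cells of the male line J1, and CD61 and SSEA1 served to sort PGCLCs out of embryoid bodies before poly(A) RNA sequencing. The 12 libraries formed 6 groups of 2: OE and EV at day 6, OE and EV at day 2, and dTAG13 and DMSO at day 2, where each agent was given for 2 days. The labels write OE and EV without spelling them out, and the series is about Tex10, a nuclear protein known for roles in ribosome assembly and in the pluripotency network. They name no clone and no allele, and they do not say whether the 2 libraries of a group came from separate cultures, so p-values measure only the spread between libraries.

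MHC class I molecules are found on most nucleated cells, where a heavy chain paired with the light chain B2m shows peptides from inside the cell to CD8 T cells and natural killer cells. The peptides are cut by the proteasome, pumped into the endoplasmic reticulum by the Tap1 and Tap2 transporter and fitted to the heavy chain with the help of Tapbp (tapasin). Class II molecules, such as the one whose beta chain is encoded by H2-Ab1, show peptides from taken-up material to CD4 T cells, and are best known from B cells, dendritic cells and macrophages. Cd74 encodes the invariant chain, which blocks the class II groove until the peptide is loaded. Pluripotent stem cells and early germ cells are known for low class I levels, and interferon gamma raises both classes through the regulators Nlrc5 and Ciita.

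The RefSeq promoter windows of 4 of the genes are shown because class I genes are known for a shared upstream module of NF-kappaB, interferon regulatory factor (IRF), cyclic AMP response element (CRE)-like and CCAAT elements. Entries were held for 5 of the 7 genes. Each window is the 250 bases before the RefSeq start, on the gene's own strand, in GRCm38.p6: H2-K1 from chr17:34000348-34000597, H2-D1 from chr17:35262844-35263093, B2m from chr2:122147437-122147686 and Tap1 from chr17:34187306-34187555. Capitals mark matches on either strand to 4 motifs: the CCAAT box, TGACG for the CRE core, GGGATTCCC for a kappaB site and AANNGAAA for an IRF element, where N is any base.
H2-K1: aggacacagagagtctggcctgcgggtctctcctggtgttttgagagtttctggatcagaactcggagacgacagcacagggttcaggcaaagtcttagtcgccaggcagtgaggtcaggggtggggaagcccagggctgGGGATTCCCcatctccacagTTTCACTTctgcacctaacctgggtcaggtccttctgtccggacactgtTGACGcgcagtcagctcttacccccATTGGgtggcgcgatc
H2-D1: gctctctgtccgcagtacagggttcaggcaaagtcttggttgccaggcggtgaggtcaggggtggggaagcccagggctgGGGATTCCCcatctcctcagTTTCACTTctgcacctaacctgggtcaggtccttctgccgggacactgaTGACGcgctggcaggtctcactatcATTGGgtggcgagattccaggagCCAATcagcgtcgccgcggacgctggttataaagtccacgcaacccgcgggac
B2m: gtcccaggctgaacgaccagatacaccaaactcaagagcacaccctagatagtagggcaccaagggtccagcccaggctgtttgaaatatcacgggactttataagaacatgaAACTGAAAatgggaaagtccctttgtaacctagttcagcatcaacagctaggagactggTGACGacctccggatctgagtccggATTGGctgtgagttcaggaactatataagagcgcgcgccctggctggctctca
Tap1: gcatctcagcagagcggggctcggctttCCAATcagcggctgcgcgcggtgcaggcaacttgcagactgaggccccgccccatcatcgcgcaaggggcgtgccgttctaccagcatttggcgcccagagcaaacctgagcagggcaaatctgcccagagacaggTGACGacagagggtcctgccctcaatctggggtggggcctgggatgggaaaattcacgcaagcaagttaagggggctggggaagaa
H2-K1 and H2-D1 held all 4 motifs, in the order kappaB, IRF, CRE core and CCAAT towards the start. The first bases of these matches lay at -110, -90, -41 and -16 in H2-K1 and at -170, -150, -101 and -76 in H2-D1, which had another CCAAT match at -53. The B2m window held the IRF match at -137, the CRE core at -78 and CCAAT at -53. The Tap1 window held CCAAT at -222 and the CRE core at -86 and no match to the other motifs, and that of Tapbp held CCAAT matches at -248 and -165. No match overlapped one to another motif in these windows. Among 27025 RefSeq windows of the same length, CCAAT matched in 34.5%, TGACG in 17.9%, AANNGAAA in 21.6% and GGGATTCCC in 0.311%, which were 84 windows including those of H2-K1, H2-D1, H2-Q6 and H2-Q7. A match is a run of letters and not a shown binding site. The windows of H2-D1 and Tapbp lie inside these genes as GENCODE M21 places them, with starts at 35262730 and 33915899. Distances in these windows hold for the RefSeq start alone.

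Of the 7 genes, 5 lie within the MHC on chromosome 17 (GRCm38, GENCODE M21, the same assembly as mm10). Tapbp lies at 33915899-33929292 on the plus strand, H2-K1 at 33996017-34000347 on the minus strand, Tap1 at 34187553-34197225 on the plus strand, H2-Ab1 at 34257689-34269419 on the plus strand and H2-D1 at 35262730-35267499 on the plus strand. B2m lies on chromosome 2 at 122147686-122153083 and Cd74 on chromosome 18 at 60803848-60812652, both on the plus strand. H2-K1 and H2-D1 are near copies of other class I genes. Of the 50-base stretches in its longest coding transcript, H2-D1 shared 14.3% with other genes' transcripts and H2-K1 shared 8.79%, against 0.861% for Tap1, 2.0% for Tapbp and 0% for B2m, H2-Ab1 and Cd74. How reads in shared stretches were assigned between copies is not given in the sources used here, so levels of H2-K1 and H2-D1 are uncertain to that extent.

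Tex10 itself served as a check of the labels. It stood at 259 and 269 FPKM (fragments per kilobase of transcript, scaled to the mapped fragments of a library) in day 6 OE libraries against 65.7 and 81.5 FPKM in day 6 EV libraries, and at 403 and 378 FPKM in day 2 OE libraries against 119 and 145 FPKM in day 2 EV libraries. In dTAG13 libraries it stood at 45.2 and 36.5 FPKM, against 61.7 and 56.8 FPKM in DMSO libraries. A degrader acts on protein, which was not measured, and the depth of the libraries is not known. The first dTAG13 library stood apart, with 2008 genes listed at 0 against 18 to 127 genes in each of the other libraries. Germ cell markers fixed as a list (Prdm1, Prdm14, Tfap2c, Dppa3, Nanos3, Dnd1, Kit and Itgb3, which encodes CD61) were all measured, with summed levels of 144 to 274 FPKM per library. Single markers were not even over the groups. Itgb3 had group means of 0.415 to 1.01 FPKM at day 2, and of 3.93 FPKM in OE and 2.06 FPKM in EV at day 6. Nanos3 went the other way, with means of 14.8 to 52.6 FPKM at day 2, and of 3.36 and 7.75 FPKM at day 6.

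The class I heavy chain genes stood several-fold higher at day 6 than at day 2 in both lines. H2-K1 measured 23.7 and 28 FPKM in day 6 OE libraries and 33.9 and 27.6 FPKM in day 6 EV libraries, against 2.99 and 4.35 FPKM in day 2 OE libraries and 2.94 and 2.53 FPKM in day 2 EV libraries. Every day 6 library lay above every day 2 library, and the group means were 7.04 times as high at day 6 in OE and 11.2 times in EV. H2-D1, the other classical heavy chain, reached the highest levels of the 7 genes, with 49.9 and 58.4 FPKM in day 6 OE libraries and 87.8 and 70.3 FPKM in day 6 EV libraries. At day 2 it stood at 6.16 and 7.99 FPKM in OE libraries and at 7.55 and 6.83 FPKM in EV libraries. The days did not overlap for H2-D1 either, with ratios of means of 7.65 in OE and 11 in EV. In these bulk samples, a change in the share of cells that carry a transcript and a change in the amount per cell cannot be told apart.

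The light chain and the loading genes differed less between the days. B2m measured 11.6 and 14.3 FPKM in day 6 OE libraries and 12.1 and 11.1 FPKM in day 6 EV libraries, against 5.11 and 8.01 FPKM in day 2 OE libraries and 5.37 and 4.67 FPKM in day 2 EV libraries. All 4 day 6 libraries lay above these 4 day 2 libraries, with ratios of means of 1.98 in OE and 2.32 in EV. Tap1, the peptide pump subunit, measured 4.18 and 6.68 FPKM in day 6 OE libraries against 3.68 and 3.21 FPKM in day 2 OE libraries, and 13.5 and 13.1 FPKM in day 6 EV libraries against 7.51 and 8.61 FPKM in day 2 EV libraries. Within each line the days did not overlap, but both day 6 OE libraries lay below both day 2 EV libraries. Tapbp, which bridges the transporter and the empty class I molecule, measured 18.8 and 20.8 FPKM in day 6 OE libraries and 24.4 and 23.3 FPKM in day 6 EV libraries. At day 2 Tapbp stood at 16.3 and 15.0 FPKM in OE libraries and at 13.6 and 14.5 FPKM in EV libraries, again below every day 6 library.

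The class II genes split. H2-Ab1 measured 25.5 and 32.8 FPKM in day 6 OE libraries and 29.1 and 19.1 FPKM in day 6 EV libraries, against 0.843 and 1.10 FPKM in day 2 OE libraries and 0.268 and 0.190 FPKM in day 2 EV libraries. The ratio of means was 30.0 in OE and 105 in EV, and both rest on day 2 values near or below 1 FPKM. The invariant chain gene Cd74 measured 2.96 and 5.66 FPKM in day 6 OE libraries against 3.03 and 2.38 FPKM in day 2 OE libraries, which overlapped. In EV libraries Cd74 stood at 13.1 and 8.50 FPKM at day 6 against 5.48 and 5.86 FPKM at day 2, with no overlap. Cd74 therefore exceeded H2-Ab1 in each of the 8 day 2 libraries and lay below it in each of the 4 day 6 libraries. H2-Aa, which encodes the alpha chain that pairs with the H2-Ab1 product, was not analysed here, nor were Ciita and Nlrc5.

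**Figure D1:**
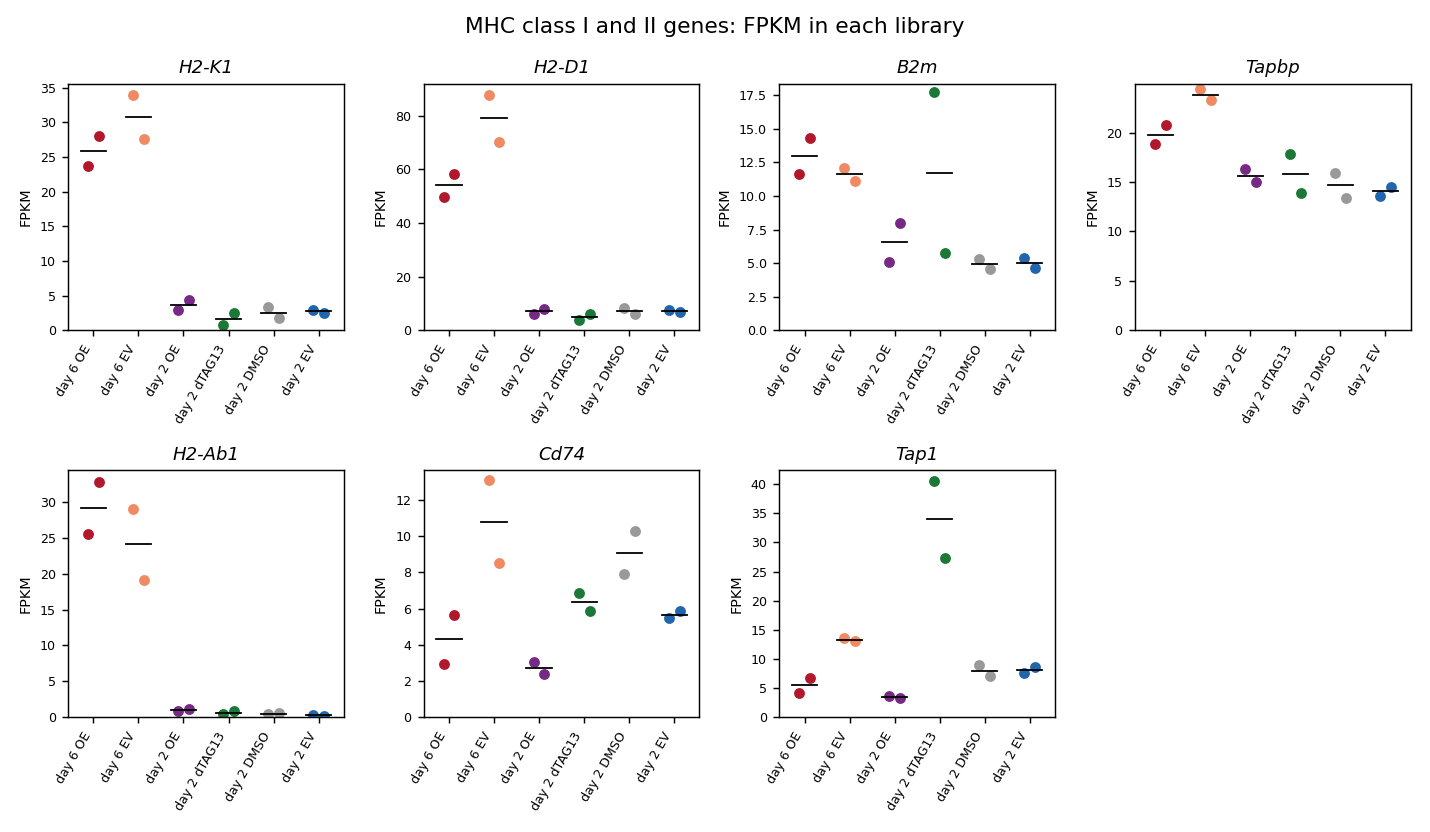
FPKM of each of the 7 genes (vertical axes, linear, from 0) in the 6 groups; points are libraries and bars are means of n = 2. H2-K1, H2-D1 and H2-Ab1 are high in all 4 day 6 libraries, while Tap1 is highest with dTAG13 at 40.5 and 27.4 FPKM.

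On the log2(FPKM + 1) scale, where the added 1 shrinks the change of low genes, the day difference in OE was 3.93 for H2-Ab1, 2.78 for H2-D1, 2.53 for H2-K1, 0.91 for B2m, 0.51 for Tap1, 0.47 for Cd74 and 0.32 for Tapbp. In EV it was 4.32 for H2-Ab1, 3.28 for H2-D1, 3.08 for H2-K1, 1.07 for B2m, 0.79 for Cd74, 0.73 for Tapbp and 0.66 for Tap1. Both day 6 libraries lay above both day 2 libraries for 6 of 7 genes in OE, where 46.0% of the 12059 tested genes did so, and for 7 of 7 in EV, where 39.9% did so. The members' median difference was 0.91 in OE and 1.07 in EV, beside 0.08 and 0.04 for all tested genes. The 7 genes were chosen on this contrast, and H2-Ab1 reached the filter only through day 6, so these counts and medians support nothing further.

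Summed leukocyte and endothelial markers stood higher at day 6 than at day 2 within OE and within EV. Not all day 2 dTAG13 and DMSO libraries lay below the day 6 libraries. Leukocyte sums there were 64.4 and 59.7 FPKM with dTAG13 and 51.3 and 47.8 FPKM with DMSO. Endothelial sums were 33.7 and 71.5 FPKM with dTAG13 and 61.8 and 52.5 FPKM with DMSO. Of 21 leukocyte markers, 9 were measured, and their summed level was 49.6 and 51.8 FPKM in day 6 OE libraries and 85.5 and 83.2 FPKM in day 6 EV libraries, against 36.9 and 35.5 FPKM in day 2 OE libraries and 51.5 and 56.5 FPKM in day 2 EV libraries. Most of that sum was Cd68, a lysosomal glycoprotein of macrophages, with 26.4 to 48.8 FPKM at day 6, and Laptm5, a lysosomal protein of blood cells, with 9.30 to 20.7 FPKM at day 6. The B cell receptor genes Cd79a and Cd79b read 0.940 to 3.35 FPKM at day 6, the myeloid factor Spi1 1.14 to 1.59 FPKM, and the myeloid receptor Cd14 0.464 to 0.935 FPKM. None of the 9 was at 0 in a day 6 library, and Ptprc and 11 others were not analysed here. Of 7 endothelial markers 4 were measured, with sums of 114 and 111 FPKM in day 6 OE libraries and 74.9 and 65.5 FPKM in day 6 EV libraries, against 38.3 and 34.0 FPKM in day 2 OE libraries and 33.5 and 34.6 FPKM in day 2 EV libraries; Pecam1, which germ and stem cells also express, made up most of them. The 5 measured of 10 endoderm and trophoblast markers summed to 6.88 to 9.95 FPKM at day 6. At day 2 they summed to 2.87 and 1.93 FPKM in OE libraries and 4.68 and 3.95 FPKM in EV libraries. With dTAG13 the sums were 10.6 and 26.2 FPKM, and with DMSO 9.77 and 8.08 FPKM. Col1a1, the one measured of 8 fibroblast markers, read 0.226 to 0.641 FPKM at day 6 and 0 to 0.834 FPKM at day 2. The part of these cell types in the MHC values was not tested.

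The other genes of the pathway were taken from 8 lists, of which 72 genes were measured and 65 tested. Between the days, 24 were called higher and 10 lower at day 6 in OE, and 19 were called higher and 3 lower in EV (limma on log2(FPKM + 1), Benjamini-Hochberg adjusted p below 0.05 over all tested genes, n = 2 per group). Among all tested genes, 17.5% were called higher and 14.7% lower in OE, and 13.3% higher and 10.5% lower in EV. Some of these genes reached the filter of 1 FPKM in 2 libraries only through the day on which they were high, so that they had to differ, and their values are given without a test. Without them 16 of 53 listed genes were called higher and 10 lower in OE, where 14.9% and 15.7% of all genes tested in the same way were, and 10 of 54 were called higher and 3 lower in EV, where 10.5% and 11.1% were. Of 9 other class I and class I-like heavy chains, 5 were such genes. Of the other 4, Fcgrt, the neonatal Fc receptor chain that also pairs with B2m, rose by 1.51 in OE (SE 0.26, adjusted p = 0.00177) and by 1.94 in EV (SE 0.26, adjusted p = 0.000915), Cd1d1, which presents lipids, rose by 1.15 in OE (adjusted p = 0.0378), and H2-M5 fell by 0.47 in OE (adjusted p = 0.0497). H2-Q7, a non-classical class I gene, measured 6.82 and 9.24 FPKM in day 6 OE libraries against 0.168 and 0.704 FPKM in day 2 OE libraries, and 9.53 and 4.96 FPKM in day 6 EV libraries against 0.0267 and 0.215 FPKM in day 2 EV libraries. It was below 1 FPKM in all day 2 libraries and is one of the genes without a test, with differences of 2.66 in OE and 2.83 in EV, and 34.9% of its 50-base stretches are shared, most with H2-Q6. H2-Q10, known in mouse liver as a secreted class I chain, differed by 2.19 in OE and 1.92 in EV, and H2-Q2 by 1.64 and 1.41, likewise without a test.

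Of 7 class II chains and processing genes, H2-Oa reached the filter only through day 6. Of the other 6, 5 rose in OE and 4 in EV, and none fell. The class II beta chain gene H2-Eb1 was called in neither line. Its means were 1.69 FPKM at day 6 and 1.05 FPKM at day 2 in OE, and 1.8 and 1.77 FPKM in EV. Among all genes tested in the same way, 14.9% were called higher in OE and 10.5% in EV. H2-DMa, a chain of the DM molecule that loads class II peptides, measured 9.62 and 9.93 FPKM in day 6 OE libraries against 1.35 and 1.17 FPKM in day 2 OE libraries, and 11.1 and 6.77 FPKM in day 6 EV libraries against 1.06 and 0.520 FPKM in day 2 EV libraries. It rose by 2.26 in OE (SE 0.39, adjusted p = 0.00209) and by 2.46 in EV (SE 0.39, adjusted p = 0.00224). Lgmn, a lysosomal protease, rose by 1.63 in OE and 1.25 in EV. H2-DMb1, the partner chain of H2-DMa, rose by 1.49 in OE (adjusted p = 0.0282). Ifi30, a lysosomal thiol reductase, rose by 1.26 in OE and 1.05 in EV, and the protease Ctsl rose by 0.98 and 0.99, but both are also lysosomal genes of general use.

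Among 9 other peptide loading genes, Tap2 and Erap1 reached the filter only through day 6, and of the other 7, 3 were higher and 1 lower in OE, and 1 was higher in EV. The shares over all genes tested in the same way were 14.9% higher and 15.7% lower in OE, and 10.5% and 11.1% in EV. Tap2, the partner of Tap1 in the transporter, measured 2.03 and 2.88 FPKM in day 6 OE libraries against 0 and 0.475 FPKM in day 2 OE libraries, and 4.62 and 3.36 FPKM in day 6 EV libraries against 0.245 and 0.228 FPKM in day 2 EV libraries. The differences were 1.5 in OE and 2.00 in EV, without a test, beside 0.51 and 0.66 for Tap1. The chaperones and glycoprotein folding genes Uggt1, Ganab and Canx rose in OE by 0.70, 0.60 and 0.45, and Uggt1 rose by 0.54 in EV. Tapbpl, a relative of tapasin that edits class I peptides, fell by 1.84 in OE (SE 0.46, adjusted p = 0.0133). The constitutive catalytic subunits of the proteasome fell in 3 of 3 cases in OE and 2 of 3 in EV. The immunoproteasome and PA28 genes were mixed: Psmb10 fell by 1.51 in OE and by 0.98 in EV, Psme2, a subunit of the PA28 activator, fell by 0.44 in OE, and the other 3 passed the test in neither line. In EV 3 of these 5 genes had both day 6 libraries above both day 2 libraries, where 39.9% of all tested genes did, and the list median there was 0.11.

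Of the receptors and signalling genes of interferon, 4 of 10 rose in each line and none fell. Among all genes tested in the same way, 14.9% were called higher in OE and 10.5% in EV. Ifngr1, the ligand-binding chain of the interferon gamma receptor, rose by 1.76 in OE (SE 0.29, adjusted p = 0.00146) and by 2.18 in EV (SE 0.29, adjusted p = 0.000895). Socs3, a feedback inhibitor of cytokine signalling, rose by 0.99 in OE and 1.16 in EV, and the kinase Jak1 by 0.92 and 0.64. Ifnar2, of the type I receptor, rose by 2.13 in OE, and Stat2, a transcription factor of that pathway, by 1.36 in EV. Of 12 regulators of MHC transcription, Irf8, a factor of myeloid and B cells, reached the filter only through day 6 and differed by 2.14 in OE and 1.34 in EV. In OE Rfxap and Nfyb, which bind class I and II promoters in larger complexes, rose by 1.24 and 0.80, and Nfyc fell by 0.98. Of 10 interferon-stimulated genes, Igtp, an interferon-induced GTPase, and Lgals3bp reached the filter only through day 6, with differences of 1.33 in OE and 2.28 in EV for Igtp and 0.08 in OE and 0.81 in EV for Lgals3bp. Of the other 8, Ddx58 (the RNA sensor RIG-I) and Irgm1 fell in OE by 2.41 and 1.02, and none was called in EV. Calls lower among all genes tested in the same way made up 15.7% in OE and 11.1% in EV.

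**Figure D2:**
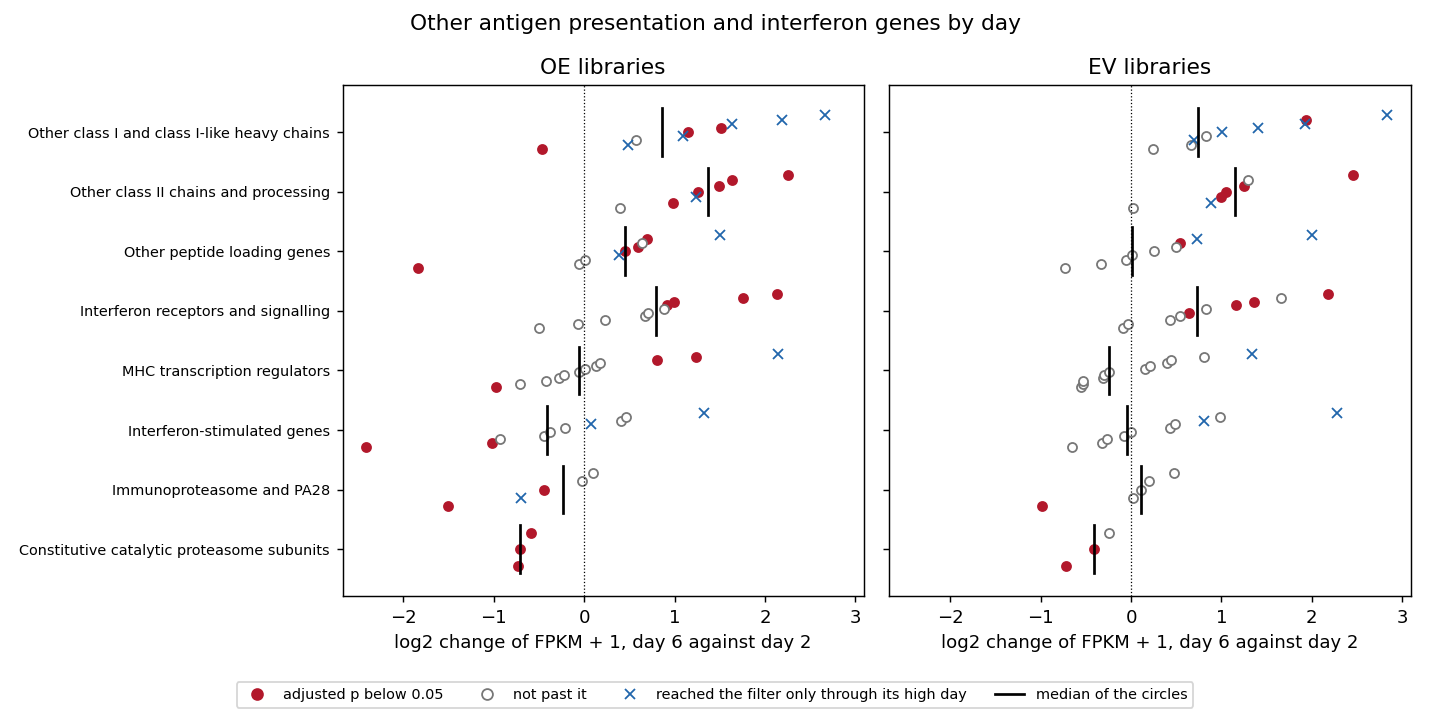
Log2 change of FPKM + 1 at day 6 against day 2 (horizontal axis) for 65 listed genes in 8 lists, in OE and in EV libraries; filled circles passed an adjusted p of 0.05, crosses are genes that reached the filter only through the day on which they were high, and bars are the medians of the circles of a list. The circles of the other class I and class II lists have medians of 0.86 and 1.38 in OE and 0.74 and 1.15 in EV, and those of the constitutive proteasome subunits of -0.71 in OE and -0.41 in EV.

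With OE at day 6, Tap1 was the 1 of the 7 genes that passed the test, and it was lower. It measured 4.18 and 6.68 FPKM in OE libraries against 13.5 and 13.1 FPKM in EV libraries. The groups did not overlap and the OE mean was 0.408 of the EV mean. Tap1 fell by 1.18 on the log2 scale (SE 0.25, adjusted p = 0.0326, limma, n = 2 per group). Among all tested genes, 1.79% were called lower and 1.92% higher. The call was lost when any of the 4 libraries was left out, which leaves 1 library in a group, with changes of -1.47 to -0.9. It was also lost in the limma fit with a replicate block, at an adjusted p of 0.052. Under the other alternatives with all 4 libraries it was kept, at adjusted p of 0.000153 (sample quality weights) to 0.0408 (pseudocount 0.1).

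Cd74 followed at -1.17 (SE 0.29, adjusted p = 0.0574), with 2.96 and 5.66 FPKM in OE libraries against 13.1 and 8.50 FPKM in EV libraries. Both OE libraries were lower. The first dTAG13 library is no part of this comparison but enters the shared estimate of the spread. H2-D1 stood at -0.53 (adjusted p = 0.255). Tapbp stood at -0.26 (adjusted p = 0.469), H2-K1 at -0.24 (adjusted p = 0.779), H2-Ab1 at 0.28 (adjusted p = 0.63) and B2m at 0.14 (adjusted p = 0.904). Both OE libraries lay below both EV libraries for 4 of 7 genes (Tap1, Cd74, H2-D1 and Tapbp), where 29.5% of tested genes did so, and above them for 0 of 7, where 39.3% did so. The median of the 7 was -0.26, beside 0.05 for all tested genes. The day 6 EV libraries that serve here also enter the difference by day for which H2-Ab1 was chosen.

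With OE at day 2, none of the 7 genes passed, where 0.846% of tested genes did and 1483 genes had an unadjusted p below 0.05. Tap1 measured 3.68 and 3.21 FPKM in OE libraries against 7.51 and 8.61 FPKM in EV libraries, with no overlap and a ratio of means of 0.427. Its log2 difference was -1.03 (SE 0.25, adjusted p = 0.114, limma, n = 2 per group). Tap1 passed with only the groups compared in the fit (adjusted p = 0.002) and with sample quality weights (0.0102). It did not pass with another pseudocount, filter or scaling, a replicate block or no trend. The first dTAG13 library enters the shared estimate of the spread at day 2 as well. Cd74 measured 3.03 and 2.38 FPKM in OE libraries against 5.48 and 5.86 FPKM in EV libraries, a difference of -0.85 (SE 0.29, adjusted p = 0.249). H2-Ab1 was low in both groups and higher in both OE libraries, at 0.68 (SE 0.26, adjusted p = 0.303). H2-K1 stood at 0.31, B2m at 0.30, Tapbp at 0.15 and H2-D1 at -0.03, with adjusted p of 0.84 to 0.991. Both OE libraries lay above both EV libraries for 3 of 7 genes, where 31.1% of tested genes did so, and below for 2 of 7, where 22.6% did so. The median of the 7 was 0.15, beside 0.04 for all tested genes. The test of the difference between the OE effects at the 2 days called 0 of the 7, with estimates of -0.55 for H2-K1 to -0.16 for B2m and Tap1 and adjusted p of 0.609 to 0.966, where 0.232% of tested genes were called and 1303 had an unadjusted p below 0.05.

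Of the 65 other listed genes, Psme2 and Lgals3bp were called lower with OE at day 6, none was called higher, and none was called at day 2. Among all tested genes 1.79% were called lower and 1.92% higher at day 6, and 0.846% were called at day 2. Without genes that reached the filter through 1 side, 1 of 61 was lower at day 6, beside 1.77% of all genes. The counts thus lie near the background. Psme2 measured 79.9 and 75.4 FPKM in day 6 OE libraries against 118 and 123 FPKM in day 6 EV libraries, and fell by 0.63 (SE 0.10, adjusted p = 0.0116). Lgals3bp, an interferon-stimulated secreted glycoprotein, measured 0.175 and 0.272 FPKM in OE libraries against 1.11 and 1.06 FPKM in EV libraries. It reached the filter only through these EV libraries, so its difference of -0.77 is a description and not a test. Both OE libraries lay below both EV libraries for 6 of the 9 other interferon-stimulated genes, with a median of -0.73. They did so for 4 of 5 immunoproteasome and PA28 genes, with a median of -0.63. Of all tested genes 29.5% did so, and the median of all tested genes was 0.05. Above both EV libraries lay 2 of the 9, the well expressed Bst2 at 0.33 and Trim25 at 0.26. None of the 5 did so, where 39.3% of all tested genes did. Ddx58 stood at -1.83 (adjusted p = 0.0548), the nucleic acid sensor Zbp1 at -1.16 (adjusted p = 0.0715), Igtp at -0.92 (adjusted p = 0.0812) and Psmb9 at -0.74 (adjusted p = 0.118). None of these genes passed the test. The first dTAG13 library enters the spread estimate of this test too. Leukocyte markers moved in the same direction, since Cd68 fell by 0.74 (SE 0.14, adjusted p = 0.0235) and 4 of 6 markers, beside Cd79a and Itgam, which reached the filter only through day 6 EV libraries, had both OE libraries below both EV libraries. Their part in the result was not tested.

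In the lists with no call the best expressed genes lay near 0 or passed no test. At day 6 Calr stood at 0.23 and Pdia3 at 0.02 (peptide loading), Fcgrt at -0.29 and H2-M5 at -0.42 (other class I), Ctsl at 0.65 and Ifi30 at 0.29 (class II processing). Nfyc stood at -0.23 and Nfyb at 0.47 (regulators), Socs3 at 0.60 and Jak1 at 0.38 (interferon signalling), and Psmb6 at -0.39 and Psmb5 at -0.05 (constitutive proteasome). At day 2 these genes, with Psme2, Psme1, Trim25 and Bst2, stood between -0.17 for Nfyb and 0.89 for Bst2 (adjusted p = 0.517). Socs3 stood at 0.77 there, with an adjusted p of 0.0544, against 0.0608 at day 6.

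With dTAG13, Tap1 was again the 1 of the 7 genes that passed, and here it was higher. It measured 40.5 and 27.4 FPKM in dTAG13 libraries against 8.86 and 6.97 FPKM in DMSO libraries. Both dTAG13 libraries lay above all 10 other libraries of the series, and the mean was 4.28 times that with DMSO. Tap1 rose by 1.95 (SE 0.25, adjusted p = 0.00208, limma, n = 2 per group), or by 1.68 without the first dTAG13 library (adjusted p = 0.000257). Among all tested genes, 4.01% were called higher and 8.21% lower. The call used the spread shared by all 6 groups: with only dTAG13 and DMSO libraries in the fit the adjusted p was 0.308, and no gene of the table passed. With sample quality weights it was 0.167.

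**Figure D3:**
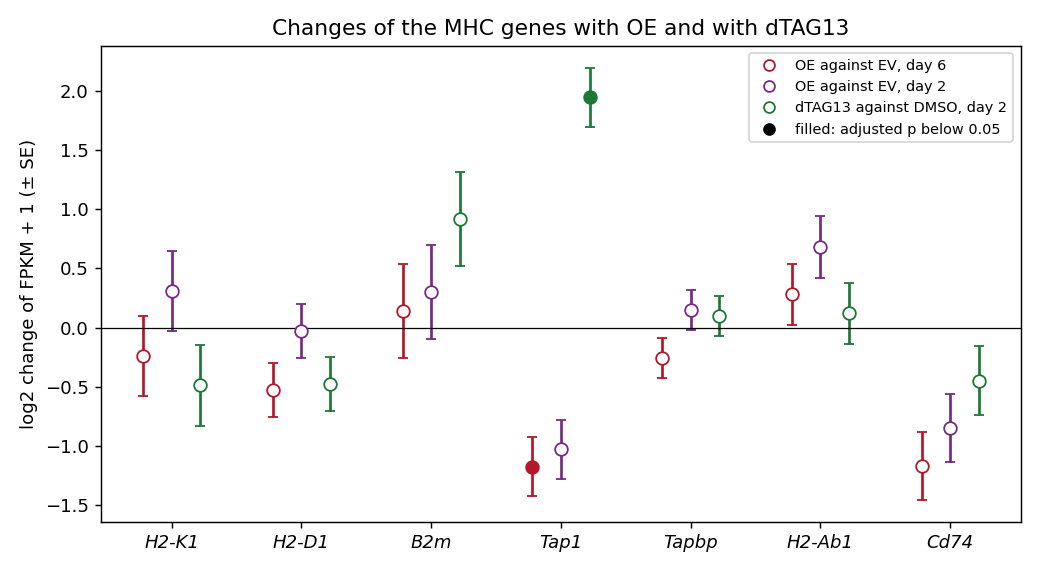
Log2 change of FPKM + 1 (vertical axis) of each of the 7 genes for OE against EV at day 6 and day 2 and for dTAG13 against DMSO at day 2; bars are ± 1 SE of the model and filled points passed an adjusted p of 0.05. Tap1 lies at -1.18 with OE at day 6 and at 1.95 with dTAG13, and the other genes lie between -1.17 and 0.92.

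The remaining members did not pass the test with dTAG13 when both of its libraries were used. B2m measured 17.7 and 5.74 FPKM in dTAG13 libraries against 5.32 and 4.56 FPKM in DMSO libraries, so that its difference of 0.92 (SE 0.40, adjusted p = 0.148) rests on the first dTAG13 library. It was 0.19 without that library and 1.66 without the second (adjusted p = 2.82e-05). H2-K1 measured 0.749 and 2.47 FPKM in dTAG13 libraries against 3.33 and 1.79 FPKM in DMSO libraries, at -0.49 (adjusted p = 0.344), and its difference was 0.00 without the first dTAG13 library and -0.99 without the second (adjusted p = 0.00436). H2-D1 measured 3.94 and 6.03 FPKM in dTAG13 libraries against 8.35 and 6.22 FPKM in DMSO libraries, at -0.48 (adjusted p = 0.181), with -0.22 without the first and -0.73 without the second (adjusted p = 0.00659). Both heavy chains thus lay below DMSO in the first dTAG13 library, where Tap1 was at its highest. Cd74 measured 6.84 and 5.85 FPKM with dTAG13 against 7.89 and 10.3 FPKM with DMSO, at -0.45 (adjusted p = 0.314). H2-Ab1 stood at 0.12 (adjusted p = 0.782) and Tapbp at 0.10 (adjusted p = 0.698), with overlapping libraries. Both dTAG13 libraries lay above both DMSO libraries for 2 of 7 genes, where 13.8% of tested genes did so, and below for 2 of 7, where 34.7% did so. The median of the 7 was 0.10, beside -0.13 for all tested genes.

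Of the 65 other listed genes, 2 rose and 8 fell with dTAG13, beside 4.01% higher and 8.21% lower among all tested genes, so the counts lie near the background. H2-Eb1, another class II beta chain, measured 3.93 and 5.12 FPKM in dTAG13 libraries against 0.716 and 0.855 FPKM in DMSO libraries, and rose by 1.62 (SE 0.22, adjusted p = 0.00281). Nfkb1, an NF-kappaB subunit gene, measured 28 and 10.7 FPKM in dTAG13 libraries against 6.63 and 6.31 FPKM in DMSO libraries, and rose by 1.30 (SE 0.35, adjusted p = 0.0402), or by 0.65 without the first dTAG13 library (adjusted p = 0.0209). Among class I-like genes Fcgrt fell by 1.38 (adjusted p = 0.0101), Cd1d1 by 1.32 (adjusted p = 0.0453) and H2-M5 by 0.67 (adjusted p = 0.029). Cd1d1 is listed at 0 in the first dTAG13 library and fell by 0.62 without it (adjusted p = 0.0249). The loading chaperones Calr and Pdia3 fell by 0.78 (adjusted p = 0.00582) and 0.62 (adjusted p = 0.038), and Jak1, Lgmn and Psme2 fell by 0.59, 0.53 and 0.37. Among interferon-stimulated genes, of which 10 were tested, none passed, and the best expressed, Trim25 and Bst2, stood at -0.36 and -0.98. Psmb6 and Psmb5 stood at 0.01 and 0.16, also without a call. The number called was 0 with only the dTAG13 and DMSO libraries in the fit. The leukocyte marker sum was 64.4 and 59.7 FPKM with dTAG13 against 51.3 and 47.8 FPKM with DMSO, with Cd68 and the actin-binding Coro1a higher by 0.68 and 0.95 and Cd79b lower (-1.22). Of the 8 tested markers, 3 had both dTAG13 libraries above both DMSO libraries and 4 below, among them Cd79a, Fcer1g and Laptm5, and their median was -0.37. Their part in the result was not tested.

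The neighbours of Tap1 did not share its pattern in full. Psmb9 and Psmb8, which flank Tap1 in the MHC at 34181987-34187764 and 34197721-34201454, and Tap2 at 34203527-34216321 encode other steps of the same route. Psmb9, whose annotated start region overlaps that of Tap1 on the opposite strand, measured 4 and 4.71 FPKM in dTAG13 libraries against 3.01 and 2.42 FPKM in DMSO libraries. Its libraries also lay lower in OE at day 6, at 2.07 and 3.12 FPKM against 4.93 and 4.91 FPKM in EV libraries, as those of Tap1 did. Tap2 measured 0.0413 and 0.637 FPKM in dTAG13 libraries against 0.215 and 0.292 FPKM in DMSO libraries, and Psmb8 measured 0.410 and 0.681 FPKM against 0.589 and 0.493 FPKM, so both overlapped. None of the 3 neighbours passed the test with dTAG13 or with OE. Whether reads were counted by strand is not given in the sources used here, so reads where Tap1 and Psmb9 overlap cannot be assigned between them.

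**Figure D4:**
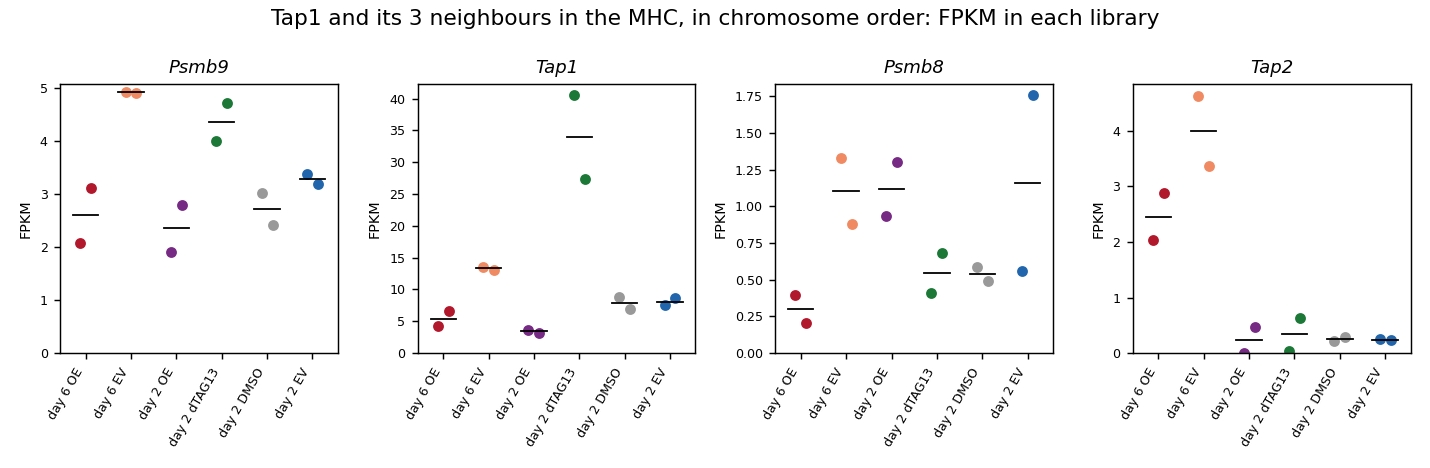
FPKM (vertical axes, linear, from 0) of Psmb9, Tap1, Psmb8 and Tap2, in chromosome order, in the 6 groups; points are libraries and bars are means of n = 2. Tap1 stands at 40.5 and 27.4 FPKM with dTAG13 while Tap2 is above 2 FPKM in day 6 libraries alone.

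DMSO and EV libraries of day 2 served as a check on how far control libraries differ, and the labels do not say what else sets these groups apart. The controls were not alike: Tex10 itself was lower in DMSO than in EV libraries, at -1.13 (SE 0.15, adjusted p = 0.0104), beside -0.53 for dTAG13 against DMSO, and the trophoblast factor Hand1 was higher by 1.89 (adjusted p = 0.0104). None of the 7 genes passed between them, where 0.39% of tested genes did and 1076 had an unadjusted p below 0.05. Cd74 differed most, with 7.89 and 10.3 FPKM in DMSO libraries against 5.48 and 5.86 FPKM in EV libraries, at 0.59 (SE 0.29, adjusted p = 0.614, limma, n = 2 per group). Tap1 stood at -0.03 (SE 0.25), H2-D1 at 0.01 (SE 0.23), H2-K1 at -0.10 (SE 0.34) and H2-Ab1 at 0.25 (SE 0.26). Both DMSO libraries lay above both EV libraries for 2 of 7 genes, where 29.5% of tested genes did so, and below for 0 of 7, where 22.7% did so. The median of the 7 was 0.01, beside 0.03 for all tested genes.

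Ordered by group mean, the 7 genes fell into different patterns. H2-Ab1, H2-K1 and H2-D1 had both day 6 groups first, and among the 4 day 2 groups the lowest mean of H2-K1 and H2-D1 was that of dTAG13 (1.61 and 4.99 FPKM), while the lowest of H2-Ab1 was that of EV (0.229 FPKM). For H2-K1 the dTAG13 libraries overlapped those of DMSO. The first dTAG13 library was the lower of the pair for H2-K1 and H2-D1, at 0.749 and 3.94 FPKM. Tap1 ran from 33.9 FPKM with dTAG13 over 13.3 FPKM in day 6 EV, 8.06 FPKM in day 2 EV, 7.92 FPKM with DMSO and 5.43 FPKM in day 6 OE to 3.44 FPKM in day 2 OE, and only EV and DMSO at day 2 overlapped among neighbours in that order. Cd74 ran from 10.8 FPKM in day 6 EV to 2.71 FPKM in day 2 OE, and all neighbours overlapped except DMSO and dTAG13. Across the 12 libraries, the Pearson correlation of log2(FPKM + 1) was 0.99 between H2-K1 and H2-D1, 0.974 between H2-Ab1 and H2-D1 and 0.969 between H2-Ab1 and H2-K1. It was -0.222 between Tap1 and H2-K1, 0.562 between Tap1 and Cd74 and 0.135 between Cd74 and H2-Ab1. These are descriptions with no p: the libraries share groups, and the high values follow the split between the days.

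The genes whose levels ran most like each member were found the same way over 12 libraries. For H2-Ab1 they were Loxl2 (r = 0.996), A2m (0.996), Tspan18 (0.991), Cacna1h (0.991) and Nxph4 (0.991). A2m, a protease inhibitor of blood plasma, measured 38.9 and 43.7 FPKM in day 6 OE libraries and 31.9 and 29.8 FPKM in day 6 EV libraries, and 0 to 0.930 FPKM in all day 2 libraries. For H2-K1 they were H2-D1 (0.99), Nkd2 (0.99) and Col5a3 (0.99), and for H2-D1 Adm (0.993), Kif17 (0.992) and Gpr157 (0.99). For Tap1 they were Serpine2 (0.983), Plk2 (0.981) and Rnf169 (0.979). Plk2, a polo-like kinase, measured 181 and 168 FPKM in dTAG13 libraries against 46.5 and 39.5 FPKM in DMSO libraries, and 28 and 28.8 FPKM in day 6 OE libraries against 58.8 and 58.0 FPKM in day 6 EV libraries, which is the order Tap1 showed. For B2m they were Ccdc136 (0.983), Hoxa7 (0.973) and Hsd17b4 (0.959), and for Tapbp Rnf5 (0.967), Clcn6 (0.966) and Ctsf (0.944). No gene ran as close to Cd74, for which the highest were Tkfc (0.855), Tusc3 (0.843) and Smim8 (0.831).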

How the data were processed

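Poly(A)-enriched RNA was sequenced, per the labels. Per the submitters' processing notes, reads were handled with FastQC 0.10.1, Trim Galore 0.6.3, cutadapt (version not stated), STAR 2.7.6a and Cufflinks 2.2.1 on mm10; the notes give no order of steps. The deposited table holds FPKM values by the authors plus an added 1, inferred from its lowest value of 1, and that 1 was subtracted. Summed FPKM ran from 550230 to 673435 per library; depth is unknown, which leaves the precision of low values unknown.

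A gene entered the test if 2 or more libraries read at least 1 FPKM (12059 genes); listed genes that met this only through the side of a comparison where they were high are described without a test. The test was limma 3.58.1 (R 4.3.3) on log2(FPKM + 1), with 1 model of 6 groups, a trended prior variance, 6 residual and 3.86 prior degrees of freedom, and Benjamini-Hochberg adjustment; adjusted p below 0.05 was a call. The fit was tested on simulated data. Python 3.11.15, pandas 2.3.3, numpy 2.4.6 and matplotlib 3.10.9 were used. Positions and transcripts came from GENCODE M21 and promoter windows from RefSeq GRCm38.p6.

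The 7 genes and the gene lists were chosen with earlier results of these data known. Named genes were the 7, up to 4 called genes per list and comparison (largest change first) or else the 2 best expressed, and the 5 (H2-Ab1) or 3 genes most alike. Replicate numbers were not used to pair the libraries in the main fit. Differences between replicates correlated at -0.135 to 0.252 between groups, highest for EV at day 2 and day 6, which cannot exclude a pairing. Alternatives covered pseudocount, filter, scaling, replicate block, groups in the fit, trend, sample weights and leaving out libraries.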

Additional observations from a re-analysis of the deposited data

Results flagged for a closer look

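Tapbp had both OE libraries above both EV libraries at day 2 (16.3 and 15.0 FPKM in OE libraries against 13.6 and 14.5 FPKM in EV libraries) and both below at day 6 (18.8 and 20.8 FPKM in OE libraries against 24.4 and 23.3 FPKM in EV libraries), which is why it is listed here. The difference between the 2 OE effects, day 6 minus day 2, was -0.40 on the log2(FPKM + 1) scale (SE 0.23) and did not pass the test over all genes (limma, adjusted p = 0.609, n = 2 per group). No cause was tested.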

How the results depend on the processing

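The number of the 7 genes called was 0 for OE at day 2, and 3 with only the groups compared and 1 with sample quality weights. For OE at day 6 it was 1, and 2 with a mean FPKM of at least 5, 2 with quantile normalization, 2 with median-ratio scaling, 0 with a replicate block, 3 with only the groups compared and 3 with weights. For dTAG13 it was 1, and 0 with only the groups compared and 0 with weights. Between DMSO and EV, and for the difference between the OE effects of the days, it was 0 under each alternative run. Leaving out 1 library moved these counts for OE at either day and for dTAG13, and the counts over the whole table with them. Both were highest without the first dTAG13 library for OE, and without the second for dTAG13. The other alternatives moved the whole-table calls as well. These ran from 55 to 1032 genes for OE at day 2 (102 in the main fit) and from 340 to 3897 for OE at day 6 (448). For dTAG13 they ran from 0 to 1482 (1473).

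Of the 65 listed pathway genes, those that reached the filter through 1 side included, OE at day 2 called 0, against 1 with a mean FPKM of at least 5, 1 with quantile normalization, 1 with median-ratio scaling, 8 with only the groups compared and 6 with weights. OE at day 6 called 2, against 4, 8, 5, 25 and 31 under the same alternatives. The whole-table calls given above moved under the alternatives too, so these counts are no result about the listed genes alone. With dTAG13 10 were called, against 0 with only the groups compared and 0 with weights. The day comparison called 34 in OE, against 20 with a mean FPKM of at least 5, and 22 in EV, against 12 with that filter, 42 with only the groups compared and 42 with weights. Whole-table calls by day ran from 2826 to 7577 in OE (3890 in the main fit) and from 1969 to 5581 in EV (2863) under the alternatives other than leaving out 1 library. Leaving out 1 library gave 0 to 8 (OE, day 2), 0 to 25 (OE, day 6), 1 to 38 (dTAG13), 21 to 48 (day, OE) and 13 to 44 (day, EV). The replicate block called 2 listed genes for OE at day 6, and its other counts lay within 1.5 times those without it.

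Signs changed for differences that were not called with all libraries. DMSO against EV was 0.01 for H2-D1, and -0.05 (quantile) and -0.03 (median-ratio), and 0.05 for Tapbp, and -0.01 (quantile). Leaving out 1 library gave, for OE against EV, -0.19 to 0.14 (H2-D1, day 2) and -0.01 to 0.57 (H2-Ab1, day 6); for the difference of OE effects, -0.44 to 0.12 (B2m), -0.44 to 0.13 (Tap1) and -0.70 to 0.06 (Cd74); for dTAG13, -0.99 (adjusted p = 0.00436, without the second dTAG13 library) to 0.00 (H2-K1), -0.06 to 0.27 (Tapbp) and -0.09 to 0.33 (H2-Ab1); and for DMSO against EV, -0.42 to 0.22 (H2-K1), -0.18 to 0.19 (H2-D1), -0.11 to 0.07 (B2m), -0.18 to 0.12 (Tap1) and -0.07 to 0.17 (Tapbp). With a pseudocount of 0.1 the day difference of H2-Ab1 was 4.77 in OE and 6.18 in EV. Cd74 with OE at day 6 passed with a mean FPKM of at least 5 (adjusted p = 0.0461), quantile normalization (0.0244), median-ratio scaling (0.0483), only the groups compared (0.0101) and weights (0.00133). H2-D1 passed there with only the groups compared (0.014) and weights (0.0136). With OE at day 2, Tap1 passed with only the groups compared (adjusted p = 0.002) and weights (0.0102). Cd74 (0.0084) and the low H2-Ab1 (0.0167) passed at day 2 with only the groups compared.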

Other observations

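Other genes of the MHC region were counted to set the members beside their chromosomal surroundings. Between the outermost members on chromosome 17 (33915899 to 35267499) the table held 67 genes, of which 55 were in none of the lists and 49 of those were tested. Of these 49, 6 were higher and 13 lower at day 6 in OE, with a median log2 change of -0.12, where 17.5% of all tested genes were higher and 14.7% lower, and 9 were higher and 7 lower in EV, with a median of 0.05, where 13.3% were higher and 10.5% lower (limma, adjusted p below 0.05). With dTAG13 4 were higher and 9 lower, with a median of -0.33, where 4.01% of all tested genes were higher and 8.21% lower, with a median of -0.13. OE against EV called 0 of the 49 at either day, with medians of -0.09 at day 6 and 0.22 at day 2. Among all tested genes 1.92% were called higher and 1.79% lower at day 6, and 0.846% were called at day 2. The medians of all tested genes were 0.05 at day 6 and 0.04 at day 2.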
